A study of Mus musculus with 6 samples.

Results

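The circadian clock genes of the liver were compared between mice with and without PAK4 in hepatocytes. The members are *Arntl*, *Clock*, *Npas2*, *Per1*, *Per2*, *Cry1*, *Nr1d1*, *Nr1d2* and *Dbp*, found by their gene symbols, and they are 9 of the 45777 genes in the table. Livers came from 3 WT mice, which carried floxed *Pak4* alleles (*Pak4* flox/flox) and no Cre, and from 3 LKO mice (Alb-Cre; *Pak4* flox/flox), in which Cre made from the albumin promoter acts in hepatocytes, so that the other cells of the liver keep the gene. All mice were of the C57BL/6 strain, male, 8 weeks old and fasted for 24 h, and each gave 1 RNA-Seq library. The hour of day at which the livers were taken is not given in the sources used here, and fed mice were not analysed here.

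The clock of a cell is a loop of transcription factors with a period of about a day. BMAL1 (encoded by *Arntl*) pairs with CLOCK or with its relative NPAS2 and switches on genes that carry an E-box, among them the *Per*, *Cry*, *Nr1d1*, *Nr1d2* and *Dbp* genes. The PER and CRY proteins then block BMAL1 and CLOCK, while the nuclear receptors REV-ERBα (*Nr1d1*) and REV-ERBβ (*Nr1d2*) repress *Arntl*, *Npas2* and *Cry1*. *Arntl* and *Npas2* therefore peak at the time of day when *Nr1d1* and *Dbp* are low, and the hour of feeding is a strong cue for the phase of these genes in the liver.

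The libraries held 45934632 to 55205564 counts each in the WT group and 53936281 to 59576437 in the LKO group. Read counts were scaled with edgeR's TMM method to a common library size and are given as CPM, with TMM factors of 1.28 to 1.43 in WT and 0.639 to 0.816 in LKO mice. With TMM the median log2 fold change of all genes, LKO over WT, was −0.04, and with total counts in place of TMM it was −0.90, so the scaling moves the members together with all other genes. *Pak4* had 268, 210 and 271 reads in WT mice 1, 2 and 3, against 85, 52 and 149 in LKO mice. The value of LKO mouse 3, 3.22 CPM, was within the range of the WT mice, and the log2 fold change of *Pak4* was −0.71 (edgeR adjusted p = 0.101), or −1.08 without LKO mouse 3 (edgeR adjusted p = 0.0153). With total counts it was −1.54 (edgeR adjusted p = 0.0056). In the authors' TPM the groups did not overlap, at 2.31 to 2.59 in WT and 0.265 to 0.845 in LKO mice. On the log2(TPM + 1) scale *Pak4* was at −1.19 (limma adjusted p = 0.000626), where the median gene was at −0.79. The table has 1 count per gene and does not show the floxed exons apart.

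One library differed from its group in its clock genes before any comparison of genotypes. WT mouse 1 had high *Arntl*, *Npas2* and *Cry1*, at 9.04, 6.28 and 4.95 times the geometric mean of the other 2 WT mice. Its *Nr1d1*, *Dbp* and *Nr1d2* were low, at 0.0727, 0.0817 and 0.335 times that mean. The first 3 are genes that the REV-ERBs repress, and the last 3 are E-box targets. *Per1* and *Per2* of the same mouse were at 0.965 and 0.978 times the other WT mice. All these folds are from log2(CPM + 0.1). That of *Npas2*, at 0.0611 and 0 CPM in WT mice 2 and 3, depends on the 0.1 added. In all, 6 of the 9 members and 12 of 20 clock genes (the members and the 11 further clock factors described after them) were at least 2-fold away from the other WT mice, whereas 2.25% of the 12999 genes whose mean reached 1 CPM were. For WT mice 2 and 3, whose comparison includes WT mouse 1, 3 and 4 of the 9 members and 7 and 8 of the 20 clock genes were, against 1.86% and 1.7% of all genes. In LKO mice the same count was 0, 4 and 1 of the 9 members in mice 1, 2 and 3, against 5.05%, 3.55% and 6.29% of all genes. Results for the members are therefore also given without WT mouse 1. That mouse was singled out by the values of these same genes. Tests without it therefore only describe how the results depend on it, and their p-values are not independent support.

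**Figure D1:**
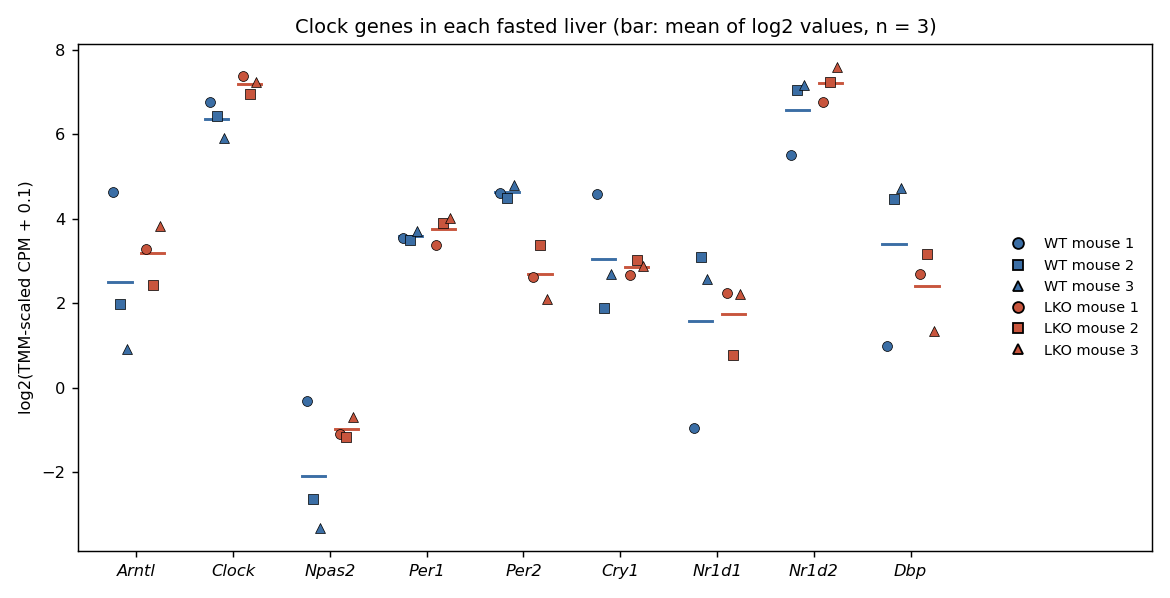
Level of the 9 clock genes in each liver, as log2(TMM-scaled CPM + 0.1) on the y axis, with 1 point per mouse, WT in blue and LKO in red, and bars for the mean of 3 mice. WT mouse 1 (blue circle) lies far above the other WT mice for *Arntl*, *Npas2* and *Cry1* and far below them for *Nr1d1*, *Nr1d2* and *Dbp*, and all 3 LKO points lie below all WT points for *Per2*.

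**Figure D2:**
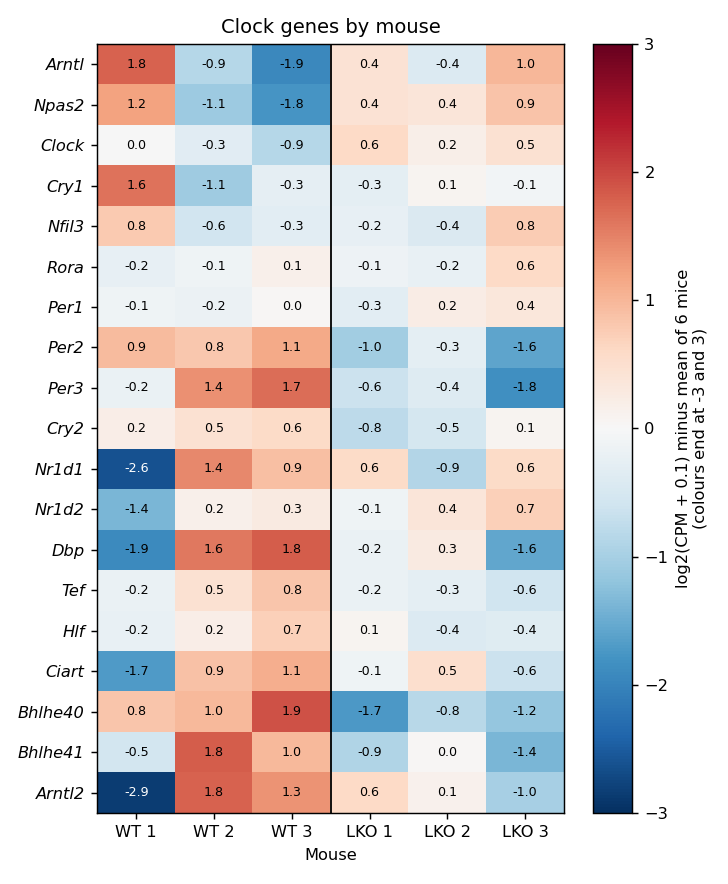
Clock genes in rows and mice in columns, coloured by log2(CPM + 0.1) minus the mean of the 6 mice for that gene, with the value printed in each cell. The column of WT mouse 1 is red for *Arntl*, *Npas2* and *Cry1* and blue for *Nr1d1*, *Nr1d2*, *Dbp*, *Ciart* and *Arntl2*, the reverse of WT mice 2 and 3 for most of these genes.

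All 9 members passed the filter on low counts. With the 6 mice, *Per2* fell and *Clock* rose in LKO livers, and the other 7 members did not pass the test (edgeR's quasi-likelihood test, adjusted p under 0.05). Among the 18636 genes tested, 40.1% passed, with 19.6% higher and 20.5% lower in LKO, so 2 of 9 is a smaller share than that of all genes. With total counts in place of TMM, 57.6% of all genes passed, 6.26% higher and 51.4% lower, and 3 members passed, all lower (*Per1*, *Per2* and *Dbp*). The median log2 fold change of the 9 members was −0.05, beside −0.04 for all genes. Without WT mouse 1, 5 members passed, with *Arntl*, *Clock* and *Npas2* higher and *Per2* and *Dbp* lower, while 30.2% of 18929 genes did. With WT mouse 1 left out and total counts, 6 members passed, *Npas2* higher and *Per1*, *Per2*, *Nr1d1*, *Nr1d2* and *Dbp* lower, beside 49.2% of all genes, 4.56% higher and 44.6% lower. With a correction for gene length and all mice, *Clock* and *Per2* passed, beside 38.6% of all genes, 20.2% higher and 18.4% lower.

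**Figure D3:**
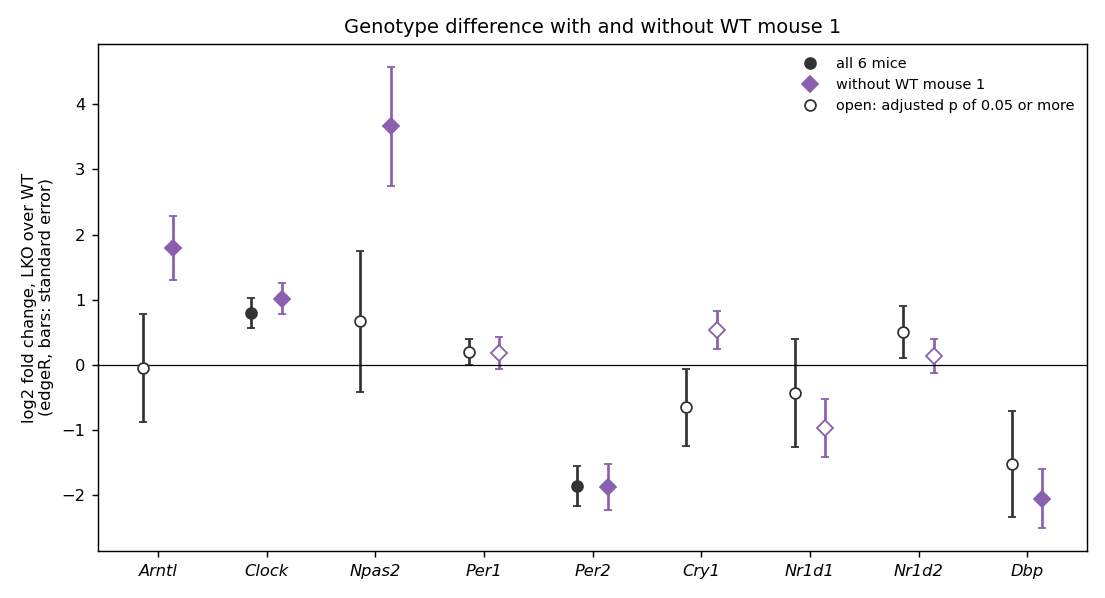
Log2 fold change of each member, LKO over WT, by edgeR with TMM scaling and with standard errors as bars, from all 6 mice (circles) and without WT mouse 1 (diamonds). Symbols are filled where the adjusted p was under 0.05. *Per2* is near −1.9 in both, *Arntl* moves from −0.05 to 1.80, and the positive value of *Clock* turns to −0.06 when total counts replace TMM.

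Markers of other liver cells also differed between the genotypes. In bulk liver, fewer cells of a type and less RNA per cell cannot be told apart. The summed level of 5 markers per cell type was 31110 to 36399 CPM in WT and 74432 to 95516 CPM in LKO mice for hepatocytes, 210 to 332 and 387 to 772 for Kupffer cells, 211 to 252 and 362 to 389 for sinusoidal endothelial cells, 209 to 246 and 539 to 803 for stellate cells, and 3.35 to 10.6 and 14.5 to 29.1 for neutrophils. It was 32.9 to 50.1 and 13.4 to 29.9 CPM for cholangiocytes and 42.9 to 63.7 and 29.4 to 43.2 for lymphocytes. With the authors' TPM, stellate cells alone of these 5 kept sums that were higher in all LKO mice. The sums were 32693 to 37463 TPM in WT and 22230 to 36210 TPM in LKO mice for hepatocytes, 178 to 296 and 137 to 206 for Kupffer cells, 109 to 149 and 76.7 to 119 for endothelial cells, 125 to 161 and 161 to 222 for stellate cells, and 4.91 to 29.2 and 20.6 to 40.4 for neutrophils. For stellate cells the highest WT sum was 161.0 TPM and the lowest LKO sum was 161.2 TPM. Most of each stellate sum came from *Dcn*, whose TPM ran from 103 to 136 in the WT group and from 147 to 208 in the LKO group. The mean TPM of the remaining stellate markers, *Lrat*, *Reln*, *Des* and *Col1a1*, was lower in the LKO group. No marker was at 0 in all mice. Of the markers tested with TMM, where 19.6% of all genes rose and 20.5% fell, 3 of 5 rose for Kupffer cells, 3 of 5 for endothelial cells, 2 of 5 for stellate cells and 3 of 4 for neutrophils, where the other fell, and 1 of 4 fell for cholangiocytes and 1 of 5 for lymphocytes. For hepatocytes 2 of 5 rose (*Alb* and *Apoa1*) and 2 fell (*Ttr* and *Trf*). Most of each hepatocyte sum by CPM came from *Alb*, which ran from 19641 to 23812 in the WT group and from 60635 to 83840 in the LKO group. Likewise, *Spp1* made most of each cholangiocyte sum, at 30.5 to 48.1 CPM in WT and 11.7 to 26.5 CPM in LKO mice. *Krt19*, *Sox9* and *Epcam* had log2 fold changes of 1.00, 0.11 and 0.05 and did not pass. For lymphocytes it was *Ptprc*, at 41.1 to 61.0 CPM in WT and 27.0 to 42.2 CPM in LKO mice, which did not pass. With total counts, where 6.26% of all genes rose and 51.4% fell, 2 rose and 1 fell for Kupffer cells, 2 and 2 for endothelial cells, 1 and 2 for stellate cells, 1 and 1 for neutrophils and 2 and 3 for hepatocytes. The part of these markers in the results for clock genes was not tested.

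*Arntl*, *Clock* and *Npas2* encode the activators. *Arntl* (Entrez gene 11865, chromosome 7, 113178471 to 113314126 of GRCm38.p6, which mm10 represents) was at 24.5, 3.87 and 1.77 CPM in WT mice 1, 2 and 3 against 9.59, 5.28 and 14.2 CPM in LKO mice 1, 2 and 3. The WT range thus enclosed the LKO range, and the highest WT value was that of mouse 1. With all mice the log2 fold change was −0.05 ± 0.83 (SE, n = 3 each, edgeR adjusted p = 0.965). Without WT mouse 1 all 3 LKO mice were above both WT mice, by 1.80 on the log2 scale (edgeR adjusted p = 0.0309). The read count per FPKM, divided by its median over the genes of the same mouse, is a measure of the length behind the authors' estimate. This relative length differed between mice for *Arntl*. It was 2.82 in WT mouse 3 and 3.12 in LKO mouse 2 but 1.16 to 1.63 in the other 4 mice. That 2.69-fold range was reached by 0.139% of 12961 genes, whose median was 1.04. The range was 1.51-fold for *Per1* and 1.02-fold to 1.13-fold for the other 7 members. Counts and TPM of *Arntl* and *Per1* can therefore differ in their order, and they are given apart.

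*Clock* (Entrez gene 12753, chromosome 5, 76209868 to 76305603), which encodes the partner of BMAL1, was at 108, 85.9 and 60.1 CPM in WT against 166, 123 and 151 CPM in LKO mice. All LKO mice were above all WT mice, as was so in either direction for 54% of the genes tested. *Clock* rose by a log2 fold change of 0.79 ± 0.23 (edgeR adjusted p = 0.0248) with TMM, whereas with total counts its value was −0.06 (edgeR adjusted p = 0.867). Set against the median of all genes, its change was 0.83 with TMM, 0.84 with total counts and 0.12 on the log2(TPM + 1) scale. The last value depends on the 1 added. On the log2(TPM + 0.1) scale *Clock* was at −0.72, beside −1.34 for the median of all genes. It did not pass the test without WT mouse 2, WT mouse 3 or LKO mouse 1, with log2 fold changes of 0.77, 0.58 and 0.69 and adjusted p-values of 0.0865, 0.0958 and 0.0707 in edgeR. Its value without WT mouse 1 was 1.01 (edgeR adjusted p = 0.018).

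*Npas2* (Entrez gene 18143, chromosome 1, 39193702 to 39363240), which can stand in for CLOCK, had few reads, 52, 4 and 0 in WT against 16, 12 and 24 in LKO mice. WT mouse 1 alone held 52 of the 56 WT reads, and the 0 of WT mouse 3 allows a level of up to 0.0453 CPM (3 reads, counting error only). The values were 0.697, 0.0611 and 0 CPM in WT against 0.364, 0.344 and 0.519 CPM in LKO mice, so the groups overlapped. The log2 fold change was 0.67 ± 1.08 (edgeR adjusted p = 0.651). Without WT mouse 1 it was 3.66 (edgeR adjusted p = 0.0222), a value that rests on 4 WT reads.

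The PER and CRY proteins form the repressor complex. *Per2* (Entrez gene 18627, chromosome 1, 91415977 to 91459351) was at 24.2, 22.2 and 27.5 CPM in WT against 6.09, 10.3 and 4.15 CPM in LKO mice. The groups were far apart, and WT mouse 1 was in the middle of the WT mice. *Per2* fell with a log2 fold change of −1.85 ± 0.30 (edgeR adjusted p = 0.00211). Without WT mouse 1 it was −1.87 (edgeR adjusted p = 0.00797), and it passed the test without any 1 of the 6 mice, between −2.27 and −1.60. It was also lower with total counts (−2.76, edgeR adjusted p = 0.000133).

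*Per1* (Entrez gene 18626, chromosome 11, 69095108 to 69109965), the paralog of *Per2* that answers quickly to hormones and light, was at 11.6, 11.2 and 13.0 CPM in WT against 10.2, 14.8 and 16.2 CPM in LKO mice. The lowest and the highest values were both from LKO mice. Its log2 fold change was 0.20 ± 0.20 with TMM (edgeR adjusted p = 0.442), 0.18 without WT mouse 1 (edgeR adjusted p = 0.597), and −0.67 with total counts (edgeR adjusted p = 0.0191), which is 0.23 above the median of all genes at that scaling. *Cry1* (Entrez gene 12952, chromosome 10, 85131700 to 85185054) was at 23.9, 3.58 and 6.30 CPM in WT against 6.25, 8.06 and 7.24 CPM in LKO mice. WT mouse 1 was the highest of all, WT mouse 2 the lowest, and WT mouse 3 lay between LKO mouse 1 and LKO mouse 3. The log2 fold change of *Cry1* was −0.65 ± 0.60 (edgeR adjusted p = 0.417) with WT mouse 1 and 0.53 without it (edgeR adjusted p = 0.211).

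Promoter sequences were read to see which clock elements these genes carry, since the genes of 1 loop arm moved together in WT mouse 1. RefSeq windows of the 250 bases before a start site (GRCm38.p6) were matched for 8 of the 9 members, *Per2* being the member without one, and for 9 of the 11 further clock genes. The E-box CACGTG, bound by BMAL1 and CLOCK, was searched on both strands and is in 6.02% of 32851 such windows. It is in the windows of *Per1* and *Cry1* among the members. The D-box TTATGNAA, bound by DBP, is in 3.07% of all windows and among the members in that of *Per1*. The stretch of *Per1* is chr11:69098759-69098938 on the plus strand, from 190 to 11 bases before the start site, with the E-box and then the D-box in capitals. That of *Cry1* is chr10:85185085-85185184 on the minus strand, from 130 to 31 bases before the start site, with the E-box in capitals.
Per1: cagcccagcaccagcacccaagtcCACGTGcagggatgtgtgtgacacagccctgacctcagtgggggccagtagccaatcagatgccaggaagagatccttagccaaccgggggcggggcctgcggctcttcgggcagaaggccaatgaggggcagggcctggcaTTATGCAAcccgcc
Cry1: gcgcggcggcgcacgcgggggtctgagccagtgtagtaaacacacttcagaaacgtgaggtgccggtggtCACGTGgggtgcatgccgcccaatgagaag
The REV-ERB and ROR element, searched as TAGGTCA (2.23% of windows) and TGGGTCA (3.24%), the CRE TGACGTCA (1.55%) and the heat shock element GAANNTTC (6.69%) were in none of the 8 windows of members. A match is a description of the letters and not of a bound site. Elements outside the 250 bases or spelled otherwise were not searched. A window without a match therefore does not mean that the gene lacks the element.

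The REV-ERBs are the repressors of *Arntl*. *Nr1d1* (Entrez gene 217166, chromosome 11, 98767932 to 98775377) was at 0.416, 8.42 and 5.81 CPM in WT against 4.59, 1.61 and 4.58 CPM in LKO mice. WT mouse 1 was the lowest of the 6 mice, and both other WT mice were above all LKO mice. The log2 fold change was −0.43 ± 0.83 (edgeR adjusted p = 0.705), or −0.96 without WT mouse 1 (edgeR adjusted p = 0.139). The gene overlaps the 3′ part of *Thra*, a thyroid hormone receptor gene, by 1075 bases, and *Thra* had 214 to 288 reads in WT and 111 to 242 in LKO mice. Whether strand was used in counting is not given in the sources used here.

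*Nr1d2* (Entrez gene 353187, chromosome 14, 18204056 to 18239106) was at 45.8, 131 and 143 CPM in WT against 109, 152 and 193 CPM in LKO mice. WT mouse 1 was again the lowest of all mice, and the remaining WT mice lay within the LKO range. Its log2 fold change was 0.50 ± 0.40 with TMM (edgeR adjusted p = 0.349) and −0.37 with total counts (edgeR adjusted p = 0.452), and 0.14 with TMM and without WT mouse 1 (edgeR adjusted p = 0.711). The paralogs thus had values of opposite sign with TMM, and neither passed the test.

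*Dbp* encodes a PAR-bZIP factor that carries the rhythm of the clock to D-box genes of liver metabolism. The gene (Entrez gene 13170, chromosome 7, 45705100 to 45710203) was at 1.88, 22.1 and 26.3 CPM in WT against 6.34, 8.89 and 2.42 CPM in LKO mice. WT mouse 1 was the lowest of the 6 mice and WT mice 2 and 3 were the highest. With all mice the log2 fold change was −1.52 ± 0.81 (edgeR adjusted p = 0.173). Without WT mouse 1 *Dbp* fell, with a value of −2.05 (edgeR adjusted p = 0.0139), and it also passed with total counts and all mice (−2.41, edgeR adjusted p = 0.0296). The span of *Dbp* overlaps that of *Sphk2*, a sphingosine kinase gene with 622 to 794 reads in WT and 426 to 942 in LKO mice, by 741 bases.

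Further clock factors were taken from a list of 11 genes that act in the same loop. None of them rose, 5 fell and 6 did not pass the test, and the median of their log2 fold changes was −0.79, beside −0.04 for all genes. Of all genes, 20.5% fell. With total counts 7 fell and none rose, and without WT mouse 1 6 fell and none rose, beside 51.4% and 15.1% of all genes that were lower. With the correction for gene length 3 fell and none rose, beside 18.4% of all genes. *Per3*, the third *Per* gene, was at 10.6, 31.8 and 39.0 CPM in WT against 7.79, 9.26 and 3.33 CPM in LKO mice. All LKO mice were below WT mouse 1, the lowest WT mouse, and *Per3* fell by 2.00 on the log2 scale (edgeR adjusted p = 0.0148), or by a log2 fold change of −2.39 without WT mouse 1 (edgeR adjusted p = 0.00497). *Bhlhe40*, whose product DEC1 competes for E-boxes, was at 26.7, 29.5 and 56.6 CPM in WT against 4.48, 8.29 and 6.62 CPM in LKO mice. The groups were wide apart, and *Bhlhe40* had the largest fall among the 20 clock genes with TMM and all mice, with a log2 fold change of −2.54 (edgeR adjusted p = 0.000909) and of −2.75 without WT mouse 1 (edgeR adjusted p = 0.00265).

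*Cry2*, the second *Cry* gene, was at 11.6, 13.9 and 15.2 CPM in WT against 5.77, 6.97 and 10.7 CPM in LKO mice. Its ranges did not overlap, and its log2 fold change was −0.79 (edgeR adjusted p = 0.0329), with an adjusted p above 0.05 in edgeR when WT mouse 2, WT mouse 3, LKO mouse 1 or LKO mouse 2 was left out (0.0782, 0.101, 0.0851 and 0.107), and with the correction for gene length (0.0552). *Tef*, a relative of *Dbp*, was at 57.8, 90.7 and 118 CPM in WT against 57.8, 53.6 and 43.5 CPM in LKO mice. WT mouse 1 and LKO mouse 1 met at 57.8 CPM, and the log2 fold change was −0.78 (edgeR adjusted p = 0.0382), −1.01 without WT mouse 1 (edgeR adjusted p = 0.0116), and not past the threshold without any one of the other 5 mice (edgeR adjusted p = 0.0553 to 0.128), with the length correction (0.0852) or with upper-quartile scaling (0.0628).

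Among the 6 that did not pass, *Bhlhe41*, the paralog of *Bhlhe40*, had a log2 fold change of −1.96 (edgeR adjusted p = 0.0603) with all mice and −2.41 without WT mouse 1 (edgeR adjusted p = 0.0185). With all mice it passed by edgeR's exactTest (adjusted p = 0.0245) and DESeq2 (adjusted p = 0.0152). It also passed with total counts (edgeR adjusted p = 0.0082), but not with the length correction (edgeR adjusted p = 0.0829). *Arntl2*, the paralog of *Arntl*, was at 0, 2.37 and 1.74 CPM in WT against 1.00, 0.688 and 0.259 CPM in LKO mice, where the 0 of WT mouse 1 allows up to 0.0402 CPM. WT mouse 1 was on the far side of the LKO mice from the other WT mice, and the value of −1.07 (edgeR adjusted p = 0.484) became −1.66 without it (edgeR adjusted p = 0.0474). *Ciart*, whose product CHRONO represses BMAL1, was at 1.13, 7.29 and 8.41 CPM in WT against 3.54, 5.62 and 2.47 CPM in LKO mice (log2 fold change −0.54, edgeR adjusted p = 0.529). The same split of the WT mice was seen as for *Dbp*. *Hlf*, the third PAR-bZIP gene, had a value of −0.49 (edgeR adjusted p = 0.168). It passed with total counts (−1.33, edgeR adjusted p = 0.00443) and on the log2(TPM + 1) scale (−1.45, limma adjusted p = 0.00141). The medians of all genes there were −0.90 and −0.79. *Nfil3*, whose product E4BP4 represses D-box genes, had a value of 0.04 that turned to −0.80 with total counts. *Rora*, which encodes the ROR activator of broad expression, had 0.20, or −0.65 with total counts.

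The windows of *Ciart* and *Per3* hold repeated copies of the elements and are shown for that reason. That of *Ciart* has 3 E-boxes, at 116, 58 and 44 bases before the start site, in chr3:95882259-95882368 on the minus strand. That of *Per3* has 2 D-boxes, at 205 and 158 bases before the start site, in chr4:151044796-151044895 on the minus strand. The elements are in capitals.
Ciart: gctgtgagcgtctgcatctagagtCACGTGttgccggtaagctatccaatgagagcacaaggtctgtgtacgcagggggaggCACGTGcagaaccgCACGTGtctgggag
Per3: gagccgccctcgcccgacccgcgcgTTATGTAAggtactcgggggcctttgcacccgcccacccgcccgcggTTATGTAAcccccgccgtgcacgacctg
An E-box is also in the windows of *Bhlhe41* and *Tef*, a TAGGTCA in that of *Nfil3* and a CRE in that of *Hlf*.

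Ratios of 2 clock genes within a mouse do not depend on the scaling of libraries. For *Arntl* to *Nr1d1* the ratio of reads was 58.0, 0.460 and 0.306 in WT against 2.09, 3.27 and 3.09 in LKO mice. The LKO mice were close to each other and lay between WT mouse 1 and the other 2 WT mice, with an SD of the log2 ratio of 0.352 in LKO and 4.21 in WT mice. The mean log2 ratio differed by 0.46 (LKO minus WT, two-sided exact permutation test, p = 1), and the difference was 2.88 without WT mouse 1. The log2 ratio of *Arntl* to *Dbp* was 3.70, −2.51 and −3.89 in WT and 0.60, −0.75 and 2.54 in LKO mice, a difference of 1.70 (exact permutation p = 0.5) that was 4.0 without WT mouse 1 and 0.20 at the other end of the leave-one-out values. The log2 ratio of *Npas2* to *Nr1d1* was 0.74, −6.94 and −9.59 in WT and −3.62, −2.18 and −3.12 in LKO mice, a difference of 2.29 (exact permutation p = 0.5) that was 5.29 without WT mouse 1 and 0.13 at the other end. In each of these 3 ratios of the loop's opposite arms, WT mouse 1 was above and WT mice 2 and 3 were below all LKO mice.

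*Per1* to *Per2* was the ratio that separated the genotypes. Its log2 value was −1.06, −0.99 and −1.08 in WT and 0.75, 0.53 and 1.96 in LKO mice. *Per2* reads were thus more than *Per1* reads in every WT mouse and fewer in every LKO mouse, WT mouse 1 included. The difference was 2.12 (two-sided exact permutation p = 0.1, the smallest that 3 against 3 mice allow, and 0.6 after adjustment over the 6 ratios), and it was 1.68 to 2.40 without any 1 mouse. The log2 ratio of *Clock* to *Npas2* differed by −1.71 (exact permutation p = 0.4), or −3.17 without WT mouse 1 and −0.32 at the other end. That of *Arntl* to *Cry1* differed by 0.89 (exact permutation p = 0.4), 1.18 without WT mouse 1 and from 0.25 to 1.35 without any 1 mouse, and both ratios overlapped between the genotypes with all mice.

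**Figure D4:**
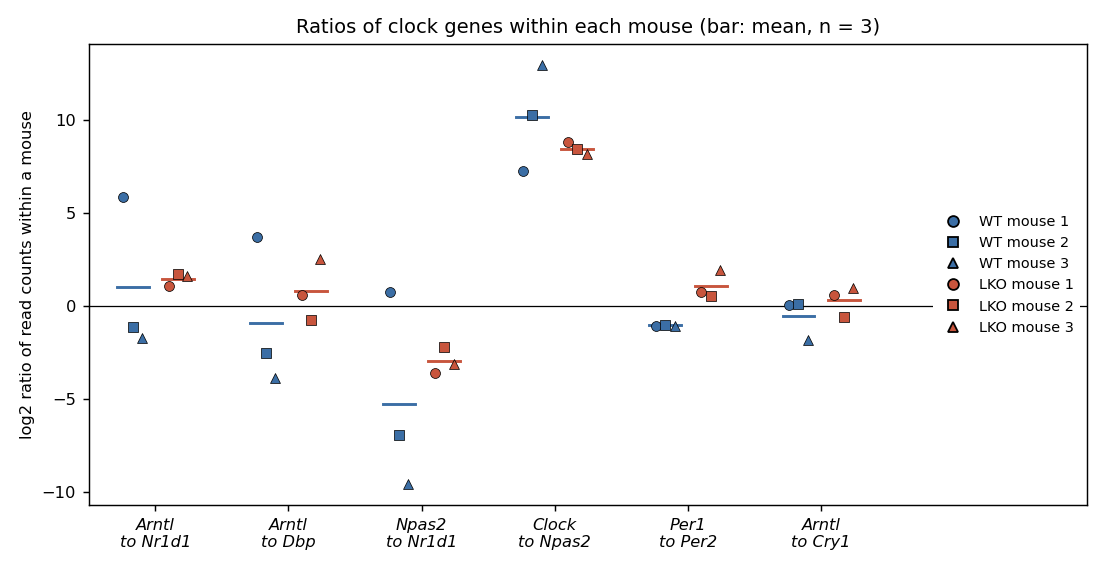
Log2 ratio of the read counts of 2 clock genes within each mouse, for 6 pairs, with 1 point per mouse and bars for the mean of 3. WT mouse 1 (blue circle) is above and WT mice 2 and 3 are below the LKO mice for *Arntl* to *Nr1d1*, *Arntl* to *Dbp* and *Npas2* to *Nr1d1*, and only *Per1* to *Per2* has no overlap, with WT mice near −1.0 and LKO mice from 0.53 to 1.96.

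Levels of different members were compared in the authors' TPM, which account for transcript length and sum to the same total in each mouse. In WT mice the order of mean TPM was *Nr1d2* (45.2 ± 22.5), *Dbp* (21.3 ± 16.4), *Clock* (16.9 ± 5.05), *Per2* (8.31 ± 0.397), *Cry1* (7.23 ± 7.12), *Arntl* (4.68 ± 5.83), *Per1* (4.03 ± 0.204), *Nr1d1* (3.52 ± 3.07) and *Npas2* (0.115 ± 0.175, SD, n = 3 each). Neighbours among the first 3, and among *Per2*, *Cry1*, *Arntl*, *Per1* and *Nr1d1*, differed by less than the sum of their SDs. Without WT mouse 1 the WT means were 58.1 for *Nr1d2*, 30.7 for *Dbp*, 14.7 for *Clock*, 8.39 for *Per2*, 5.13 for *Nr1d1*, 4.05 for *Per1*, 3.14 for *Cry1*, 1.36 for *Arntl* and 0.0140 for *Npas2*. In LKO mice the order was *Nr1d2* (22.2 ± 8.15), *Clock* (10.2 ± 3.00), *Dbp* (2.34 ± 1.06), *Arntl* (2.00 ± 1.59), *Cry1* (1.59 ± 0.193), *Per1* (1.46 ± 0.131), *Nr1d1* (0.926 ± 0.532), *Per2* (0.749 ± 0.211) and *Npas2* (0.0662 ± 0.024). Here the neighbours from *Dbp* to *Per2* differed by less than the sum of their SDs. *Per2* was 4th in WT and 8th in LKO mice.

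The TPM of *Per1*, *Per2* and *Cry1* did not overlap between the genotypes and were lower in LKO mice (two-sided exact permutation p = 0.1 each, the smallest possible, and 0.3 after adjustment over the 9 members). The share of all genes without overlap was not counted in TPM, so these members cannot be set against it. The 54% by TMM-scaled CPM belongs to another scaling and does not stand in for that share. *Rora* and *Hlf*, which overlapped by CPM, did not overlap in TPM, while *Nfil3* and *Ciart* overlapped in both. The median gene was lower in LKO mice in TPM, with a difference of −0.79 on the log2(TPM + 1) scale, beside which *Per1* was at −1.03, *Per2* at −2.42 and *Cry1* at −1.33. The log2 ratio of mean TPM of *Cry1* was −2.18, and −0.98 without WT mouse 1, whereas that of *Per1* was −1.46 and −1.47 and that of *Per2* −3.47 and −3.49. *Clock*, higher in LKO with TMM, was 16.9 TPM in WT and 10.2 TPM in LKO mice, and its ranges overlapped. *Arntl* was at 11.3, 2.27 and 0.441 TPM in WT and 2.16, 0.345 and 3.50 TPM in LKO mice, so that without WT mouse 1 the ratio of mean TPM went from below to above 1.

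Proteins that modify PER, CRY and REV-ERB proteins set the speed of the clock. Of 21 genes for such kinases, phosphatases and ubiquitin ligases, 5 rose, 8 fell and 8 did not pass the test, a median log2 fold change of −0.45. The 13 that passed are 61.9% of the list, beside 40.1% of all genes. With total counts none rose and 16 fell, beside 51.4% of all genes that fell, and without WT mouse 1 4 rose and 5 fell, beside 30.2% of all genes that passed. *Btrc*, whose product β-TrCP recognises phosphorylated PER, was at 10.2, 13.3 and 14.5 CPM in WT against 7.25, 4.67 and 6.62 CPM in LKO mice (log2 fold change −1.03, edgeR adjusted p = 0.00708). *Usp2*, a deubiquitinase that acts on clock proteins, had −1.23 (edgeR adjusted p = 0.0148), and *Ppp1cb*, a catalytic subunit of protein phosphatase 1, had 1.21 with TMM (edgeR adjusted p = 0.000911) and −0.33 on the log2(TPM + 1) scale. The median of all genes was −0.79 on that scale.

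Of 18 co-regulators, 3 rose, 5 fell and 10 did not pass the test, with a median of −0.08. The 8 that passed are 44.4% of the list, close to the 40.1% of all genes. With total counts none rose and 15 fell, beside 51.4% of all genes that fell, and without WT mouse 1 none rose and 4 fell, beside 30.2% that passed. *Ncor1*, named after its values were seen, encodes the corepressor through which the REV-ERBs act, and was at 107, 115 and 103 CPM in WT against 68.0, 60.2 and 76.1 CPM in LKO mice. It was lower in every LKO mouse (log2 fold change −0.67, edgeR adjusted p = 0.00747). *Hdac3*, the deacetylase bound to that corepressor, had −0.72 (edgeR adjusted p = 0.0351), and −0.68 without WT mouse 1 (edgeR adjusted p = 0.0993), −0.69 without WT mouse 3 (0.101) and −0.79 without LKO mouse 2 (0.0682). *Kmt2a*, a histone methyltransferase that works with CLOCK, had −0.96 (edgeR adjusted p = 0.0175), and its adjusted p was 0.0508 to 0.0641 in edgeR without LKO mouse 1, LKO mouse 2 or WT mouse 2.

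*Ppargc1a*, which encodes PGC-1α, a fasting-induced coactivator of the RORs at *Arntl*, was at 8.62, 9.40 and 6.79 CPM in WT against 18.9, 18.0 and 110 CPM in LKO mice. LKO mouse 3 was far above the other 5 mice, and the log2 fold change was 2.56 (edgeR adjusted p = 0.0166), or 1.15 without that mouse, the lowest of the leave-one-out values. The call was lost when any 1 WT mouse was left out (edgeR adjusted p = 0.0521 to 0.0619). The *Ppargc1a* value was 1.73 with total counts (edgeR adjusted p = 0.0536) and 0.46 on the log2(TPM + 1) scale (limma adjusted p = 0.521). The medians of all genes were −0.90 and −0.79 there. In TPM, LKO mice 1 and 2 were at 2.14 and 1.52, against 2.60, 3.09 and 1.92 in WT mice 1, 2 and 3. *Sirt1*, a deacetylase that acts on BMAL1 and PER2, had 0.74 with TMM (edgeR adjusted p = 0.0268) and −0.12 with total counts, and its adjusted p was 0.0793 to 0.0827 in edgeR when any 1 WT mouse was left out.

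Output genes are rhythmic liver genes outside the loop. Of 18, 3 rose, 5 fell and 10 did not pass the test, and their median log2 fold change was 0.13. The 8 that passed are 44.4% of the list, close to the 40.1% of all genes. With total counts 1 rose and 9 fell, with a median of −0.78, beside 6.26% and 51.4% of all genes. Without WT mouse 1, 4 rose and 4 fell, beside 15.1% of all genes in each direction. *Wee1*, a cell-cycle kinase gene under E-box control, was at 8.81, 12.1 and 15.7 CPM in WT against 2.29, 3.01 and 0.670 CPM in LKO mice. It was lower in every LKO mouse (log2 fold change −2.63, edgeR adjusted p = 0.00333). *Noct*, the gene for nocturnin, was at 20.8, 15.0 and 36.9 CPM in WT against 7.04, 10.2 and 6.05 CPM in LKO mice (log2 fold change −1.64, edgeR adjusted p = 0.00634). *Cyp7a1*, the rate-limiting enzyme of bile acid synthesis and a D-box gene, was at 156, 149 and 194 CPM in WT against 840, 734 and 600 CPM in LKO mice (log2 fold change 2.12, edgeR adjusted p = 0.000315). It thus moved in the other direction from *Wee1* and *Noct*. *Inmt*, a methyltransferase gene, fell with all mice (−2.05, edgeR adjusted p = 0.047) but not without WT mouse 1, 2 or 3 or LKO mouse 2 (edgeR adjusted p = 0.0697 to 0.106). The other genes that passed, named after their values were seen, were *Por* (1.57 with TMM, and with total counts 0.72 with an edgeR adjusted p of 0.0966) and *Upp2* (1.64) among those that rose and *Alas1* (−1.33) and *Ppara* (−1.12) among those that fell. *Upp2* overlapped between the genotypes and did not pass without WT mouse 1 (edgeR adjusted p = 0.11) or with total counts (edgeR adjusted p = 0.197).

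Cues that reset the liver clock, such as glucocorticoids, CREB and body temperature, were followed through 19 of their responsive genes. Of these 5 rose, 4 fell and 10 did not pass the test, and their median log2 fold change was 0.49. The 9 that passed are 47.4% of the list, beside 40.1% of all genes. With total counts 3 rose and 5 fell, beside 6.26% and 51.4% of all genes. The heat-shock genes *Hspa1b* (154, 26.9 and 81.8 CPM in WT against 2.54, 1.92 and 2.44 CPM in LKO mice) and *Hspa1a* (50.6, 7.09 and 26.8 CPM in WT against 0.818, 0.631 and 0.843 CPM in LKO mice) fell by 5.24 and 5.19 on the log2 scale (edgeR adjusted p = 0.000508 and 0.000856). They are near-identical copies, so the split of reads between them is uncertain. *Hsph1* (−1.86) and *Dnajb1* (−1.68), further chaperone genes, fell as well. *Hspa8* (−0.36, edgeR adjusted p = 0.324) and *Hsp90aa1* (0.37, edgeR adjusted p = 0.354), also heat-shock genes of the list, did not pass. Both overlapped between the genotypes. The cold-inducible *Rbm3* was at 30.2, 28.4 and 37.6 CPM in WT against 147, 211 and 89.2 CPM in LKO mice (log2 fold change 2.22, edgeR adjusted p = 0.000932), and *Cirbp*, the other cold-inducible RNA-binding protein gene, rose too (1.71 with TMM). On the log2(TPM + 1) scale *Cirbp* was at 0.26 (limma adjusted p = 0.277), beside −0.79 for the median of all genes.

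Of the glucocorticoid-responsive genes, *Fkbp5* was at 23.1, 26.1 and 22.1 CPM in WT against 54.2, 76.5 and 147 CPM in LKO mice (log2 fold change 1.96, edgeR adjusted p = 0.0025). On the log2(TPM + 1) scale its value was 0.28 (limma adjusted p = 0.519), where the median of all genes was −0.79. *Klf9* (1.07 with TMM, −0.49 on the log2(TPM + 1) scale) and *Sgk1* (1.72 with TMM, −0.06 on the log2(TPM + 1) scale) rose as well with TMM. Both were above that median on the log2(TPM + 1) scale. The call of *Sgk1* was lost without WT mouse 2 or WT mouse 3 (edgeR adjusted p = 0.0731 and 0.0644). *Tsc22d3*, *Dusp1*, *Klf15*, *Tat* and *Pck1* of the same list did not pass the test with TMM (edgeR adjusted p = 0.0748 to 0.308). *Per1*, which answers to the same hormones, did not pass the test with TMM. WT mouse 1, which stood apart in the clock genes, was the highest WT mouse for *Hspa1a*, *Hspa1b*, *Hsph1* and *Dnajb1*. *Hsph1*, *Dnajb1*, *Cirbp*, *Klf9* and *Sgk1*, and the listed genes given as not passing, were named after their values were seen.

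**Figure D5:**
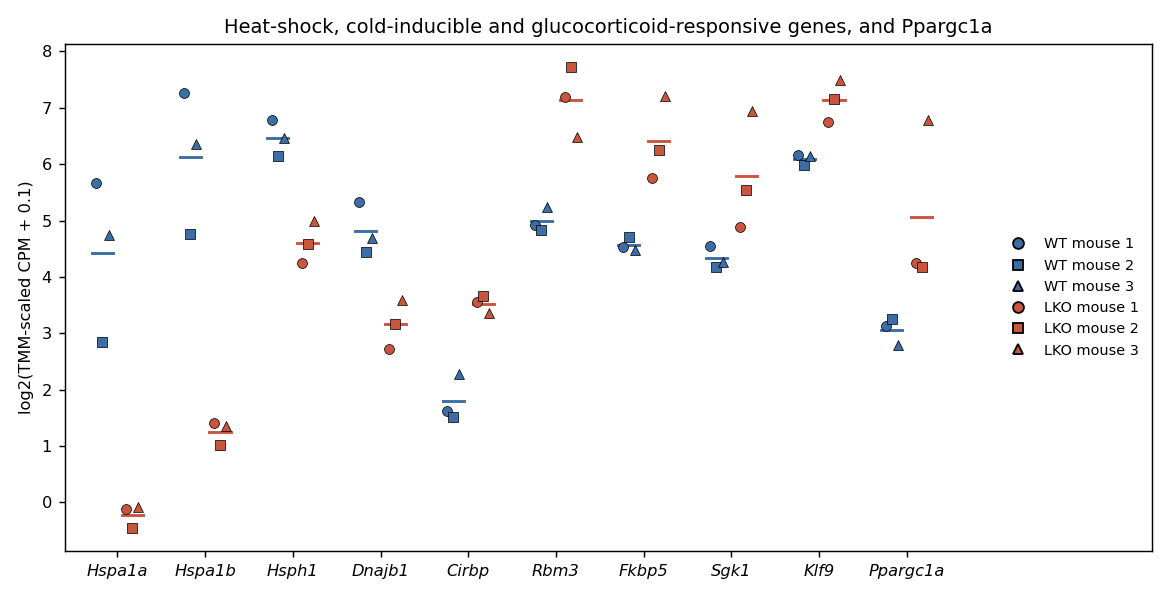
Heat-shock, cold-inducible and glucocorticoid-responsive genes and *Ppargc1a* in each liver, as log2(TMM-scaled CPM + 0.1), with 1 point per mouse and bars for the mean of 3. The 4 heat-shock genes shown are lower in all LKO mice and the other 6 are higher in all LKO mice with TMM. On the log2(TPM + 1) scale *Klf9* and *Sgk1* are at −0.49 and −0.06, and *Ppargc1a*, *Fkbp5* and *Cirbp* do not pass (limma). The median of all genes is at −0.79 on that scale. *Ppargc1a* of LKO mouse 3 lies far above the other mice. *Hspa8* and *Hsp90aa1*, which did not pass with TMM, are not shown.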

How the data were processed

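Liver RNA of 3 WT and 3 LKO mice was sequenced by the authors, 1 library from each animal, with kits that mark strand. The methods name a kit that removes rRNA and the labels a kit that selects mRNA. The submitters' processing notes list HISAT2 2.1.0, Bowtie2 2.3.4.1 and StringTie 2.1.3b and the mm10 genome. For each gene and mouse the authors deposited raw read counts, FPKM and TPM, and the counts are StringTie estimates given as whole numbers.

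Genes with more than 1 zero count were left out, as in the methods, which left 18636 genes. Counts were scaled by TMM and compared by genotype in edgeR 4.0.16 (R 4.3.3) by its two-sided quasi-likelihood test. The p-values were adjusted over all tested genes by Benjamini-Hochberg, with a threshold of 0.05. The precision of a value is an SD over 3 mice or the standard error of the model. FPKM entered the ratio of count to FPKM and an alternative for TPM. TPM and ratios of counts (0.5 added to each count) were tested by exact permutation, two-sided. Procedures were tested on simulated data. The genotype labels gave the groups, and the replicate numbers were not taken as pairs, since the deviations of same-numbered mice correlated at 0.00023, −0.039 and −0.056.

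The members and the gene lists were chosen with earlier results of these data known. Named genes were the members, the 11 further clock factors, the 4 genes of each further list with the largest change among those past the threshold without overlap and with a mean of at least 1 CPM, genes that overlap a member, *Pak4*, and the 3 protein-coding genes most correlated with *Arntl* or *Dbp*. Results for some single genes of these lists are not reported here, although they were counted and tested with the rest. Promoter windows came from RefSeq (GRCm38.p6). As alternatives, exactTest of edgeR, DESeq2 1.42.0, other scalings and filters, protein-coding genes alone, a correction for gene length, the replicate number as a block, limma 3.58.1 on log2(TPM + 1) and log2(TPM + 0.1), and leaving out each mouse were run. Leaving out WT mouse 1 together with total counts, or with the length correction, was added after the data had been seen.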

Additional observations from a re-analysis of the deposited data

How the results depend on the processing

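*Per2* stayed lower in LKO mice and past the threshold under every alternative run. The number of members past the threshold was 2 with all mice and went to 4 with limma on log2(TPM + 0.1), 6 with total counts and without WT mouse 1, 5 with the length correction and without WT mouse 1, and 1 to 5 when any 1 mouse was left out. The count over all genes was 13775 and 14002 with limma on log2(TPM + 1) and on log2(TPM + 0.1), beside 7476 of 18636. Without WT mouse 1 it was 9314 of 18929 with total counts and 5435 of 18929 with the length correction. It was 5617 to 7230 when any 1 mouse was left out.

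With total counts the log2 fold change was −0.062 for *Clock*, −0.18 for *Npas2*, −0.67 for *Per1* (past the threshold), −0.37 for *Nr1d2*, −2.41 for *Dbp* (past the threshold), −0.65 for *Rora*, −0.80 for *Nfil3* and −0.12 for *Sirt1*. The median of all genes moved to −0.90 at this scaling, which is how the alternative is built. With limma on log2(TPM + 1) and log2(TPM + 0.1) it was −0.67 and −0.72 for *Clock*, −0.053 and −0.081 for *Npas2*, −1.03 and −1.40 for *Per1* (both past the threshold), −0.89 and −0.91 for *Nr1d2*, −2.24 and −2.58 for *Dbp* (both past the threshold), −1.25 and −1.35 for *Rora* (both past the threshold), −1.04 and −1.33 for *Nfil3*, −0.33 and −0.34 for *Ppp1cb*, −0.69 and −0.83 for *Sirt1* (both past the threshold), −0.49 and −0.51 for *Klf9* and −0.060 and −0.079 for *Sgk1*, and with log2(TPM + 0.1) −1.67 for *Cry1* (past the threshold). The median of all genes was −0.79 with limma on log2(TPM + 1) and −1.34 on log2(TPM + 0.1). *Sirt1* was above the median on both scales, and *Per1* and *Rora* were close to it with log2(TPM + 0.1). *Arntl* was at 0.031 with upper-quartile scaling and 0.062 with the length correction. With total counts and without WT mouse 1, the value was 0.93 for *Arntl*, 0.15 for *Clock*, −0.73 for *Rora*, −0.26 for *Nfil3* and −0.14 for *Sirt1*, none of them past the threshold, and 2.81 for *Npas2*, −0.69 for *Per1*, −1.81 for *Nr1d1*, −0.73 for *Nr1d2* and −2.94 for *Dbp*, all past it. With the length correction and without WT mouse 1, it was 1.94 for *Arntl*, 3.82 for *Npas2* and −2.11 for *Dbp*, all past the threshold, and 0.66 for *Cry1*, which did not pass. The median of all genes with total counts and without WT mouse 1 was −0.89, below the values of *Per1* and *Nr1d2*. Apart from what the construction of an alternative shows, the cause was not tested.

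Leaving out 1 mouse at a time gave −0.58 to 1.80 for *Arntl*, 0.58 to 1.01 for *Clock*, 0.068 to 3.66 for *Npas2*, −1.12 to 0.53 for *Cry1*, −0.96 to 0.21 for *Nr1d1*, −2.05 to −1.02 for *Dbp*, −0.12 to 0.34 for *Rora* and −0.43 to 0.58 for *Nfil3*. It gave −0.90 to 2.88 for the log2 ratio of *Arntl* to *Nr1d1*, and −1.90 to 0.56 and −1.38 to 2.24 for the log2 ratio of mean TPM of *Arntl* and *Npas2*.

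With the replicate number as a block, 6431 genes and 2 members passed. The block turned *Arntl* to 0.63 and *Nr1d1* to 0.038, and with the length correction to 0.78 and 0.15, and *Nr1d2* then passed at 0.79. The mice share only a number, and same-numbered mice did not correlate best with each other. *Tef* did not pass with the block (−0.73). With 3 mice a group, the standard errors of *Arntl*, *Npas2*, *Nr1d1* and *Dbp* with all mice were 0.81 to 1.08 on the log2 scale.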

Other observations

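A long noncoding RNA gene within the span of *Arntl*, *Gm33721*, had 65, 66 and 99 reads in WT against 8, 7 and 5 in LKO mice, and it fell with a log2 fold change of −2.78 (edgeR adjusted p = 0.00152). Its WT mice were alike, whereas those of *Arntl* differed with WT mouse 1. *Gm35591*, a long noncoding RNA gene within the span of *Per2*, had 336, 717 and 376 reads in WT and 811, 103 and 306 in LKO mice (log2 fold change 0.41, edgeR adjusted p = 0.618). Whether reads of these genes and of their hosts were kept apart by strand is not given in the sources used here.

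Among 11668 protein-coding genes whose mean reached 1 CPM, the genes whose log2 CPM followed *Arntl* most closely over the 6 mice were *Zfp109* (Pearson r = 0.988), *Hist1h2bq* (0.965) and *H2bc12* (0.963), and 15 genes had an r of at least 0.9. The last 2 are histone H2B genes of near-identical sequence. Those most like *Dbp* were *C8a* (0.979), *Nos1ap* (0.977) and *Shroom3* (0.975), with 38 genes at 0.9 or above. These values describe 6 mice of both genotypes, in which WT mouse 1 is the highest point for *Arntl* and the lowest for *Dbp*.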
